A study of Mus musculus with 238 samples.

Results

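Oligodendrocyte precursor and differentiation genes were followed through 15 brain regions of old mice. The 8 genes were chosen by name and are 8 of the 21076 gene rows of the count table: Pdgfra, Cspg4, Gpr17, Bcas1, Enpp6, Olig1, Olig2 and Sox10. Bulk RNA was sequenced from C57BL/6JN mice of 19 months of age in 2 experiments. In the diet experiment, 5 female mice were dietary restricted (labelled aDR) and 4 were fed ad libitum (AL), with 131 libraries of brain and 9 of liver, where the restricted group is named DR. Among male mice of the plasma experiment, 3 received plasma of young mice (YMP) and 4 received saline (PBS) by retro-orbital injection, with 98 brain libraries. Every female belonged to the diet experiment and every male to the plasma experiment, so sex and experiment cannot be told apart. Most regions had 5 aDR against 4 AL and 3 YMP against 4 PBS libraries. The smaller diet groups were 4 against 3 in corpus callosum, 5 against 3 in entorhinal cortex and 4 against 4 in hypothalamus. The smaller plasma groups were 3 against 3 in pons, hypothalamus, cerebellum, visual cortex and posterior hippocampus, and 2 against 3 in corpus callosum. The labels give no duration or degree of restriction and no dose of plasma.

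Oligodendrocytes, the cells that wrap axons in myelin, are made throughout life from precursor cells spread over the whole brain. Precursors carry PDGF receptor alpha (Pdgfra), whose ligand PDGF drives their division and survival, and the surface proteoglycan NG2 (Cspg4), which pericytes of the vessel wall also carry. On leaving the precursor state, cells pass through a short committed stage marked by the receptor Gpr17, by Bcas1 and by the choline phosphodiesterase Enpp6, before myelin genes reach their full level. Olig1, Olig2 and Sox10 are transcription factors of the whole lineage, kept from precursor to mature cell. In bulk tissue, fewer cells of a type and less RNA per cell cannot be told apart.

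Sequences just upstream of Pdgfra and Enpp6 are shown because these genes lead the opposite regional patterns described below. RefSeq (GRCm38.p6) gave an upstream window for 4 of the 8 genes: Pdgfra, Cspg4, Enpp6 and Olig2. Both windows printed here end at the base before the start that RefSeq annotates, which for Pdgfra lies upstream of the GENCODE start given below, and are written 5′ to 3′ on the + strand, the strand of both genes. Capitals mark every match, on either strand, to CANNTG, the E-box letters that basic helix-loop-helix factors such as OLIG2 recognise, or to AACAAT, the core letters of SOX factors such as SOX10.
Pdgfra, chr5:75152001-75152250: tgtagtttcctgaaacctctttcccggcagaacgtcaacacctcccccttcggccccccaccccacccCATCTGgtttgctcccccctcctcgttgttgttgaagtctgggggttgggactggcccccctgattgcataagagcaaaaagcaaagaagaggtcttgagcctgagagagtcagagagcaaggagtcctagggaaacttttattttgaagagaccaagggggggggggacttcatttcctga
Enpp6, chr8:46986637-46986886: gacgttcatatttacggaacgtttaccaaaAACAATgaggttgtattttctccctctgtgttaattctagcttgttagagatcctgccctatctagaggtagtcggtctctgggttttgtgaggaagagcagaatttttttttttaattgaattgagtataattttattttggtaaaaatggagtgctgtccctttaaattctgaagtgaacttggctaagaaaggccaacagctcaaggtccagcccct
The Pdgfra window held 1 match to CANNTG and 0 to AACAAT, and the Enpp6 window held 0 and 1. The Olig2 window held 1 match to AACAAT and none to CANNTG, and that of Cspg4 held neither. Among 32851 windows of the same length, 66.2% held CANNTG and 9.42% held AACAAT. These are letter matches only.

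The genes lie apart in the genome, except for Olig1 and Olig2. On GRCm38 with the GENCODE M21 annotation, Pdgfra spans chr5:75152292-75198215 (+), Cspg4 chr9:56865033-56899870 (+), Bcas1 chr2:170346991-170427845 (-), Enpp6 chr8:46986887-47096762 (+) and Sox10 chr15:79154908-79165240 (-). Olig2 (chr16:91225457-91228677, +) and Olig1 (chr16:91269772-91271933, +) are neighbours. Gpr17 (chr18:31942997-31949636, -) lies inside Lims2, a gene on the other strand, and 188 of its 5195 exon bases (3.62%) are shared with exons of Lims2. Bcas1 shares 440 of 3775 exon bases (11.7%) with its antisense gene Bcas1os1, Olig1 157 of 2162 (7.26%) with Gm15966, and Pdgfra 456 of 10024 (4.55%) with the antisense gene Gm42802. The libraries carried no strand, so reads in the shared stretches cannot be assigned to one gene or the other.

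The 238 libraries held 0.606 to 32.4 M (mega) counts each, with a median of 8.44 M, and 6 held under 2 M. Levels below are CPM, counts per M counts of a library after TMM scaling over the brain libraries, and they are not divided by gene length, so levels of different genes are not compared. In pons, the library of aDR mouse 67 differed from the rest: its 10 largest genes took 23.4% of its counts, against 5.72% to 7.12% in the pons of the other aDR and AL mice. The dissected choroid plexus held much brain tissue: Mbp, a myelin gene, averaged 6198 ± 3493 CPM (SD, n = 4) in its AL libraries, and Ttr, the leading choroid plexus gene, ran from 619 to 8230 CPM there. Corpus callosum, a white matter tract, held Ttr at 34.5 to 10706 CPM in AL mice. None of the 8 genes was called across regions in either experiment, with both tissues or without them. Leaving them out could thus only have added calls.

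Pdgfra, Cspg4 and Gpr17 were lowest in cerebellum, and Pdgfra and Cspg4, the precursor genes, had the narrowest ranges of the 8 genes in AL mice. In AL mice Pdgfra was highest in entorhinal cortex, with 30.2, 26.6 and 33.5 CPM in the 3 mice (mean 30.1 ± 3.41, SD, n = 3). Cerebellum held 8.83, 11.1, 15.4 and 8.40 CPM (mean 10.9 ± 3.19, SD, n = 4), which is 2.76-fold less and without overlap. Between these ends the order was shallow: 11 of the 14 steps from a region to the next lower one were within the spread of the mice. Visual cortex, the second lowest region, held 14.6 to 18.7 CPM, and pons, rich in white matter, held 13.4 to 23.2 CPM.

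Cspg4 had the same ends. Its AL mean was 17.03 ± 1.53 CPM (SD, n = 3) in entorhinal cortex and 7.12 ± 0.529 CPM (SD, n = 4) in cerebellum, a 2.39-fold range, and 13 of its 14 steps were within the spread. Gpr17, the marker of committed cells just past the precursor stage, was highest in hypothalamus (28.0 ± 1.15 CPM, SD, n = 4) and lowest in cerebellum (7.10 ± 1.30 CPM, SD, n = 4), a 3.94-fold range. Olfactory bulb was its second lowest region at 11.5 ± 1.40 CPM (SD, n = 4), where Pdgfra stood at 21.03 ± 1.33 CPM (SD, n = 4), near the middle of its own order. As a ratio of highest to lowest mean, the range of Gpr17 was wider than those of Olig1 and Olig2 given below. The SD of its AL region means on the log2 scale was smaller, at 0.522 against 0.628 and 0.532. In PBS males cerebellum was again the lowest region of Pdgfra (9.69 ± 3.30 CPM, SD, n = 3), Cspg4 (7.001 ± 3.80) and Gpr17 (6.44 ± 2.14). The highest PBS region was choroid plexus for Pdgfra (31.99 ± 11.8 CPM, SD, n = 4), posterior hippocampus for Cspg4 (16.01 ± 2.42, n = 3) and hypothalamus for Gpr17 (33.7 ± 3.21, n = 3). Of the 14 PBS steps, 13 for Pdgfra, 14 for Cspg4 and 12 for Gpr17 were within the spread. The leading PBS regions of Pdgfra and Cspg4 were thus not resolved, and these means include PBS mouse 84, described below.

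Bcas1 and Enpp6 varied far more than the precursor genes, and in another order. Bcas1 in AL mice was highest in medulla (567.97 ± 50.8 CPM, SD, n = 4), then pons (473 ± 64.2) and corpus callosum (404 ± 80.3), and lowest in entorhinal cortex, where the 3 mice held 16.2, 24.3 and 10.6 CPM, 33.3-fold less than medulla. Enpp6 was highest in pons, with 47.6, 46.3, 37.1 and 43.9 CPM, and lowest in entorhinal cortex, with 1.75, 2.10 and 1.22 CPM, a 25.9-fold range. The first 3 regions of Enpp6, pons, corpus callosum and medulla, did not differ beyond their spread, and medulla (40.5 ± 9.65 CPM, SD, n = 4) stood above the next region, caudate putamen (26.8 ± 9.23), by more than it. Visual cortex (2.53 ± 1.15 CPM, SD, n = 4) and motor cortex (3.26 ± 0.895) were also low. In AL mice, entorhinal cortex was thus highest in Pdgfra and Cspg4 and lowest in Bcas1 and Enpp6. In PBS mice it was again lowest in Bcas1, but Enpp6 was lowest in visual cortex (2.53 ± 0.348 CPM, SD, n = 3). Entorhinal cortex led neither Pdgfra nor Cspg4 in PBS mice, where no leading region of these genes was resolved.

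Olig1, Olig2 and Sox10, the transcription factors, had their highest AL mean in pons, but it was not clear of the next regions. In AL mice Olig1 ran from 275 ± 28.3 CPM (SD, n = 4) in pons to 72.2 ± 3.81 in visual cortex, 3.82-fold, and Olig2 from 47.3 ± 5.82 in pons to 16.6 ± 1.27 in visual cortex, 2.86-fold. Cerebellum, at 16.6 ± 2.03 CPM, was within the spread of visual cortex for Olig2. Sox10 ran from 127 ± 7.48 CPM in pons to 21.02 ± 3.45 in entorhinal cortex, 6.03-fold. AL pons held 247 to 304 CPM of Olig1 and 41.2 to 54.0 of Olig2, and AL medulla 253 to 310 and 43.4 to 52.6. For Sox10, AL pons held 116 to 133 CPM and corpus callosum 104 to 145. In PBS mice medulla was highest for each, at 294 ± 14.5, 57.5 ± 5.29 and 121 ± 5.04 CPM (SD, n = 4). The lowest PBS region was cerebellum for Olig1 (72.5 ± 12.1 CPM, SD, n = 3), visual cortex for Olig2 and entorhinal cortex for Sox10. The SD of the 15 AL region means on the log2 scale was 0.31 for Cspg4, 0.35 for Pdgfra, 0.52 for Gpr17, 0.53 for Olig2, 0.63 for Olig1, 0.83 for Sox10, 1.38 for Bcas1 and 1.51 for Enpp6. Over 12007 genes of at least 5 CPM the median of this SD was 0.31, with quartiles of 0.21 and 0.53. Pdgfra and Cspg4 thus varied about as much as the median gene, and Olig1, Sox10, Bcas1 and Enpp6 lay above the upper quartile, with Gpr17 and Olig2 close to it.

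**Figure D1:**
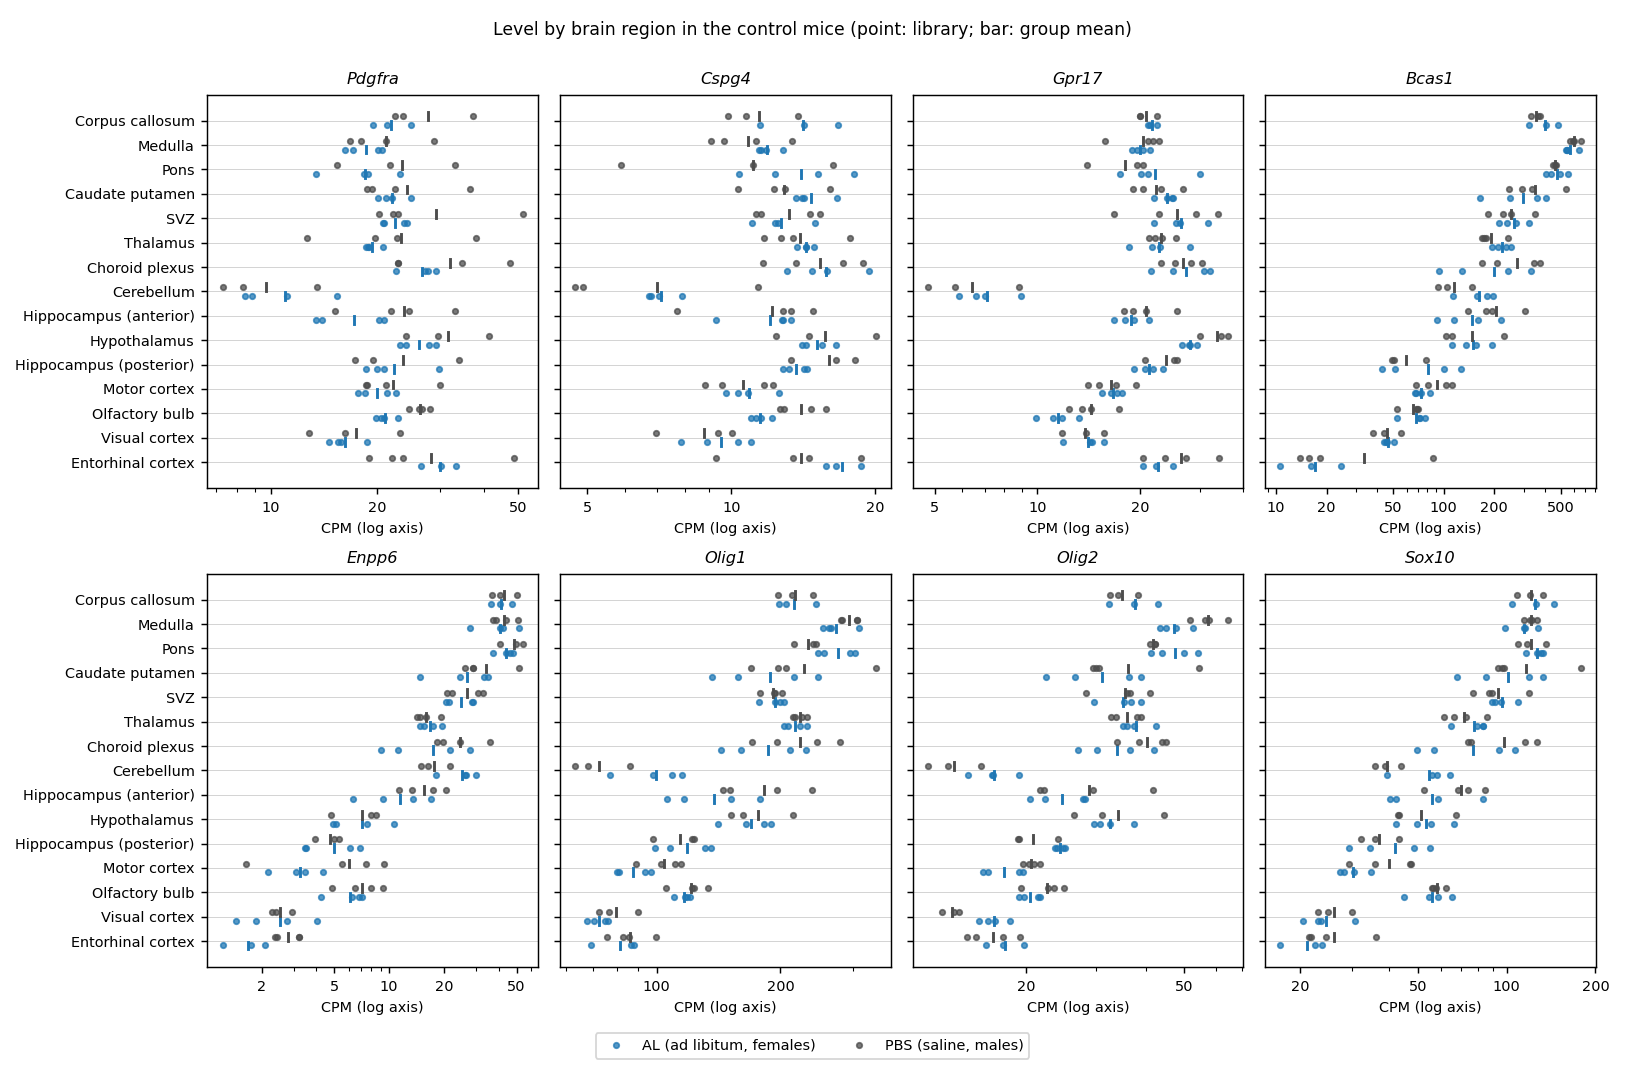
CPM (log axis) of each gene in the control libraries of 15 brain regions, AL females in blue and PBS males in grey; points are libraries, bars are group means, and regions are ordered by their mature myelin level. Enpp6 and Bcas1 climb along this order over 25.9-fold and 33.3-fold in AL mice, while Pdgfra and Cspg4 stay within 2.76-fold and 2.39-fold and dip in cerebellum.

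Regional differences passed the test for all 8 genes in both control groups. In edgeR's quasi-likelihood F test over the 15 regions with Benjamini-Hochberg adjustment, 8 of 8 genes were called at an adjusted p under 0.05 in AL mice, where 98.1% of all genes tested were called, and 8 of 8 in PBS mice, where 96.1% were. The share is thus near that of all genes. The adjusted p in AL mice was at most 9.79e-10 (Pdgfra). In PBS mice it was 0.0310 for Pdgfra and 0.00594 for Cspg4. Without PBS mouse 72 the edgeR adjusted p was 0.280 for Pdgfra and 0.0709 for Cspg4, and without PBS mouse 80 it was 0.314 and 0.0964. Without PBS mouse 84, whose Pdgfra is described below, it was 2.05e-05 and 2.35e-04.

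Each region was then set against the mean of the other 14. Of 120 pairs of gene and region, 82 were called in AL mice by edgeR, 48 higher and 34 lower, against 47.6% of all gene and region pairs (25.4% higher, 22.1% lower). In PBS mice 70 of 120 were called, 37 higher and 33 lower, against 41.3% of all (22.6% higher, 18.7% lower). Of the 120 pairs, 35 were higher in both control groups, 31 were lower in both and 34 were called in neither, and 0 were called in opposite directions.

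In entorhinal cortex of AL mice Pdgfra was higher by 0.63 on the log2 scale, Cspg4 by 0.49 and Gpr17 by 0.27, while Bcas1 was lower, at -3.34, Enpp6 at -3.03, Sox10 at -1.65, Olig1 at -0.93 and Olig2 at -0.69, and all 8 were called, where 39.3% of genes were. In PBS mice Pdgfra (0.34, edgeR adjusted p 0.238) and Cspg4 (0.23, adjusted p 0.279) were not called there, and the other 6 kept their direction and call. Of the 20 genes listed here as mature myelin genes, 19 were lower and 1 was higher in entorhinal cortex of AL mice. Of 17 OPC markers, other genes known from precursor cells, 6 were higher and 4 lower there.

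Cerebellum gave another mixture, in a region where 64.1% of all genes were called. In AL mice Gpr17 (-1.59), Pdgfra (-1.01), Cspg4 (-0.93), Olig2 (-0.82) and Olig1 (-0.66) were lower than in the other regions, Enpp6 was higher by 1.13, and Bcas1 (0.086) and Sox10 (-0.21) were not called. Of 17 OPC markers 10 were lower and 5 higher there, and of 20 mature myelin genes 2 were lower and 7 higher. In PBS mice Pdgfra (-1.38), Cspg4 (-0.87) and Gpr17 (-1.72) were lower in cerebellum too, and Enpp6 was at 0.40 (edgeR adjusted p 0.0855).

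In pons of AL mice Enpp6 (2.01), Bcas1 (1.76), Sox10 (1.11), Olig1 (0.93) and Olig2 (0.82) were higher, and Pdgfra (-0.16), Cspg4 (0.12) and Gpr17 (0.19) were not called, where 54.4% of genes were. Of the mature myelin list 19 of 20 genes were higher in pons and 1 was lower, and of the OPC markers 6 were higher and 5 lower. Hypothalamus, where 51.9% of genes were called, showed the reverse balance in AL mice: Gpr17 (0.54), Pdgfra (0.37), Cspg4 (0.24) and Olig2 (0.23) were higher and Enpp6 was lower, at -0.73. There 8 of 17 OPC markers were higher and 0 lower. In PBS mice Pdgfra and Cspg4 were called higher in 0 of 15 regions, so their calls in hypothalamus were made in AL mice only. These PBS tests include mouse 84, without which the adjusted p of both genes over regions was lower, as given above.

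Pdgfra, Cspg4 and Gpr17 shared much of their order of regions, and so did Bcas1, Enpp6 and Sox10, with Olig1 and Olig2 related to both sets. Over the 15 AL region means (log2 CPM), Pearson's r was 0.898 between Pdgfra and Cspg4, 0.787 between Pdgfra and Gpr17 and 0.889 between Cspg4 and Gpr17. It was 0.951 between Bcas1 and Enpp6, 0.950 between Bcas1 and Sox10 and 0.982 between the neighbouring genes Olig1 and Olig2. Between Pdgfra, Cspg4 or Gpr17 and the other 5 genes it ran from -0.281 (Pdgfra with Enpp6) to 0.631 (Gpr17 with Olig2), with 0.523 for Gpr17 with Olig1 and 0.498 for Cspg4 with Olig2. These are descriptions over 15 regions from the same mice and libraries. In PBS mice the corresponding values were 0.869, 0.888, 0.867, 0.950, 0.946 and 0.983 within the sets, and -0.117 (Cspg4 with Enpp6) to 0.564 (Gpr17 with Olig2) between them.

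Bcas1, also used as a marker of cells that begin to myelinate, followed the mature myelin genes closely here. With the mean of the 20 mature myelin genes over AL regions, r was 0.991 for Bcas1, 0.964 for Enpp6, 0.960 for Sox10, 0.897 for Olig1 and 0.837 for Olig2, and 0.264 for Gpr17, 0.067 for Cspg4 and -0.199 for Pdgfra. With the mean of the 17 OPC markers it was 0.604 for Olig2, 0.591 for Olig1, 0.524 for Cspg4, 0.464 for Pdgfra, 0.458 for Gpr17, 0.425 for Sox10, 0.297 for Enpp6 and 0.295 for Bcas1. These values were not particular to OPC markers. With 7 microglia genes r over AL regions was higher for every gene but Pdgfra (0.431), such as 0.695 for Gpr17 and 0.610 for Cspg4. Pdgfra had 0.557 with 6 neuroblast genes. The split by the mature myelin genes also appeared among libraries of 1 region and treatment. Over the deviations of 229 brain libraries from their group means, r with the mature myelin list was 0.965 for Bcas1, 0.881 for Sox10, 0.830 for Enpp6, 0.795 for Olig1 and 0.692 for Olig2, against 0.088 for Gpr17, -0.052 for Pdgfra and -0.105 for Cspg4. With 8 pericyte genes, the deviations of Cspg4 had r = 0.387 and those of Pdgfra 0.335, while the other 6 genes lay between -0.0076 and 0.062. Over the region means both were negative with the pericyte genes (Cspg4 -0.235 in AL and -0.422 in PBS, Pdgfra -0.446 and -0.484), and with the OPC markers their deviations had r = 0.381 and 0.454. Libraries share their normalisation, and these values carry no test.

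Within a library, the log2 difference Enpp6 minus Pdgfra removes depth from the comparison of regions. In AL mice it was -4.01 ± 0.51 (SD, n = 3) in entorhinal cortex, -2.66 ± 0.73 (n = 4) in visual cortex and -2.57 ± 0.32 (n = 4) in motor cortex. It was 1.25 ± 0.47 (SD, n = 4) in pons, 1.20 ± 0.40 in cerebellum and 1.09 ± 0.30 in medulla. Cerebellum was low in Pdgfra and moderate in Enpp6, so its difference stood with those of the white matter rich regions. Gpr17 minus Pdgfra stayed between -0.86 (olfactory bulb) and 0.26 (pons) over AL region means. Olig1 minus Olig2 stayed between 2.11 and 2.59, which is a near constant ratio over the brain.

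**Figure D2:**
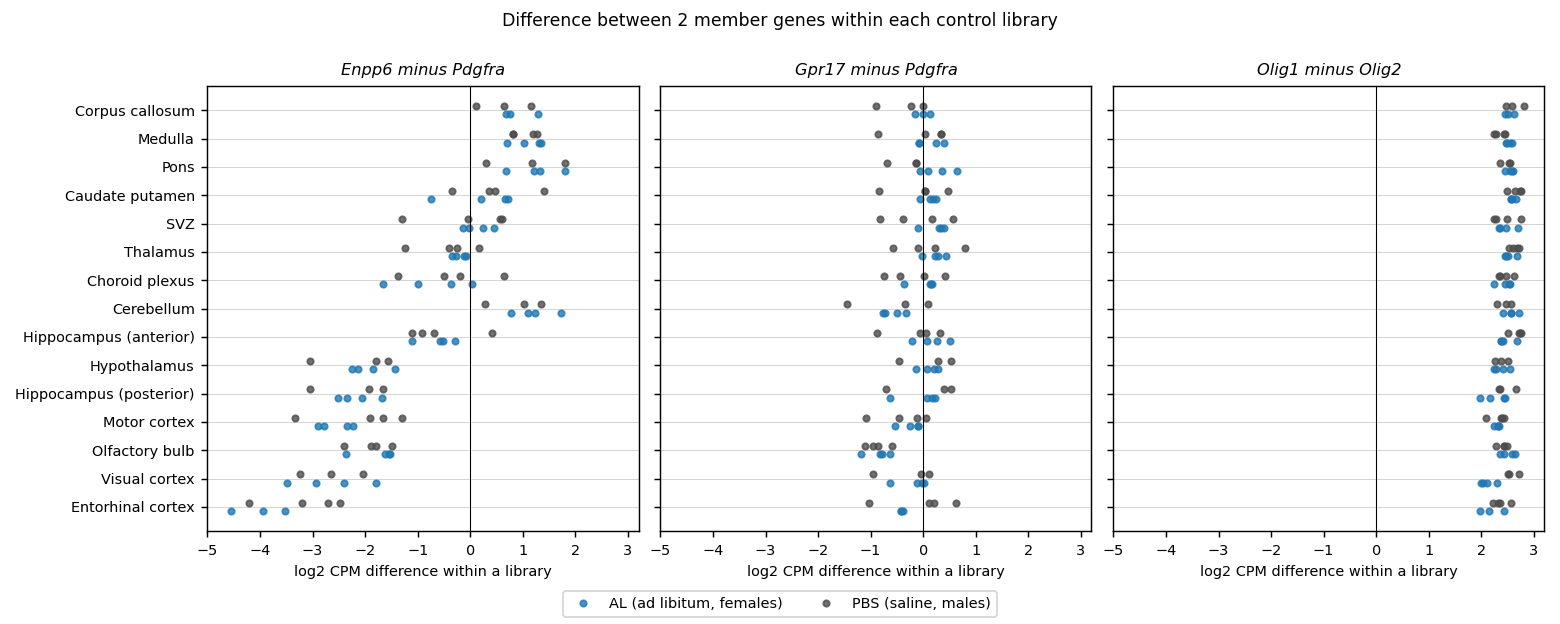
Log2 CPM difference between a pair of genes within each control library (x axis) in 15 brain regions, AL females in blue and PBS males in grey. Enpp6 minus Pdgfra runs from a mean of -4.01 in entorhinal cortex to 1.25 in pons in AL mice, while Olig1 minus Olig2 stays between means of 2.11 and 2.59.

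The 3 genes of the whole table most like each member over the AL region means were read as a description, with n = 15 regions. For Bcas1 they were its antisense gene Bcas1os1 (r = 0.998; 0.997 in PBS mice), Mag (0.993; 0.993), a myelin adhesion protein, and Tmem88b (0.993; 0.986). For Enpp6 they were Anln (0.992; 0.990), Serpinb1a (0.991; 0.987) and Efhd1 (0.991; 0.976). For Sox10 they were Gab1 (0.984; 0.970), Bfsp2 (0.982; 0.952) and P2rx7 (0.981; 0.947). Unstranded reads in the exon bases shared by Bcas1os1 and Bcas1 cannot be told apart.

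Olig1 and Olig2 shared Tmem229a (0.967 and 0.952; 0.961 and 0.964 in PBS mice) and Jam3 (0.960 and 0.927; 0.953 and 0.950), and the remaining ones were Bpgm (0.957; 0.882) and Neu4 (0.952; 0.929), a sialidase also on the OPC markers list. Pdgfra and Cspg4 shared Spata33 (0.930 and 0.879; 0.785 and 0.810). Pdgfra was also close to Mmab (0.903; 0.786) and Myo1h (0.883; 0.833), and Cspg4 to Cdh13 (0.904; 0.817) and Abcb6 (0.881; 0.769). Gpr17 was closest to Hddc2 (0.938; 0.893), Mtch1 (0.937; 0.890) and Efcab1 (0.937; 0.924). None of the OPC markers was among the 3 nearest genes of Pdgfra, Cspg4 or Gpr17.

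Liver, which has no oligodendrocytes, showed which rows also count reads from other cells. Olig2 and Sox10 had 0 counts in 9 of 9 liver libraries, which allows up to 0.247 to 0.857 CPM per library (3 counts of its total; counting error only). Cspg4 and Bcas1 had at most 3 and 1 counts there. Gpr17 was at 7.37 to 9.40 CPM in AL and 10.2 to 13.3 CPM in DR liver (CPM of the library total, with no TMM scaling), beside 64.7 ± 5.98 CPM (SD, n = 4) of its overlapping gene Lims2 in AL liver. In AL brain the mean of Lims2 ran from 9.77 CPM in visual cortex to 21.8 CPM in medulla. The part of Lims2 in the brain values of Gpr17 was not tested. No test of diet was run in liver, so the AL and DR ranges are not read as a difference. Pdgfra, which fibroblasts and liver stellate cells also express, was at 4.65 to 8.98 CPM in liver, and Enpp6 at 1.66 to 3.99 CPM. Olig1 held 3 to 28 counts in the 9 liver libraries, 0.307 to 2.31 CPM. The Enpp6 level of AL entorhinal cortex (1.22 to 2.10 CPM) was below 8 of the 9 liver libraries, and its 25.9-fold range rests on that low level.

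Dietary restriction was set against free feeding to ask whether the 8 genes move with diet in the old female brain. Each was lower on average in aDR mice over all regions, and none passed the test. Olig2, the factor that sets up and maintains the lineage, stood closest. Its value per mouse, the mouse term of a fit of log2 CPM on region and mouse, was 4.68, 4.59, 4.59, 4.52 and 4.49 in the aDR mice and 4.75, 4.79, 4.88 and 4.76 in the AL mice. The groups did not overlap. The limma difference was -0.22 on the log2 scale (SE 0.045, adjusted p = 0.0602), and Olig2 was lower in 13 of 15 regions.

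Cspg4 also differed without overlap, with 3.57, 3.44, 3.56, 3.61 and 3.43 in aDR and 3.73, 3.68, 3.66 and 3.66 in AL mice, a difference of -0.16 (SE 0.044, limma adjusted p = 0.129). The difference was -0.12 for Olig1 (SE 0.051, adjusted p = 0.285), -0.12 for Pdgfra (SE 0.057, adjusted p = 0.338) and -0.12 for Sox10 (SE 0.079, adjusted p = 0.489). Gpr17 (-0.10), Enpp6 (-0.076) and Bcas1 (-0.047) had limma adjusted p of 0.624, 0.868 and 0.861. Thus 0 of 8 were called, where 0.922% of 15616 genes were, and 3 of 8 (Olig2, Cspg4, Olig1) had an unadjusted p under 0.05, where 16.1% of genes did. Lower without overlap held for 2 of 8, against 4.14% of all genes. The median difference of the 8 genes was -0.12, against -0.0062 over all genes.

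A fit with the mouse as a replicate block on single libraries (limma with voom) changed the call: Olig2 was at -0.20 (adjusted p = 0.00499) and Cspg4 at -0.15 (adjusted p = 0.0111), so 2 of 8 were called, in a fit that called 1474 genes in all against 144 in the fit on mouse values. Over its alternatives the limma adjusted p of Olig2 ran from 1.72e-04 to 0.171. Without the pons library of aDR mouse 67, in which Olig2 was at 13.0 CPM against 37.0 to 38.6 CPM in the other aDR mice, the difference was -0.20 (limma adjusted p = 0.0508).

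**Figure D3:**
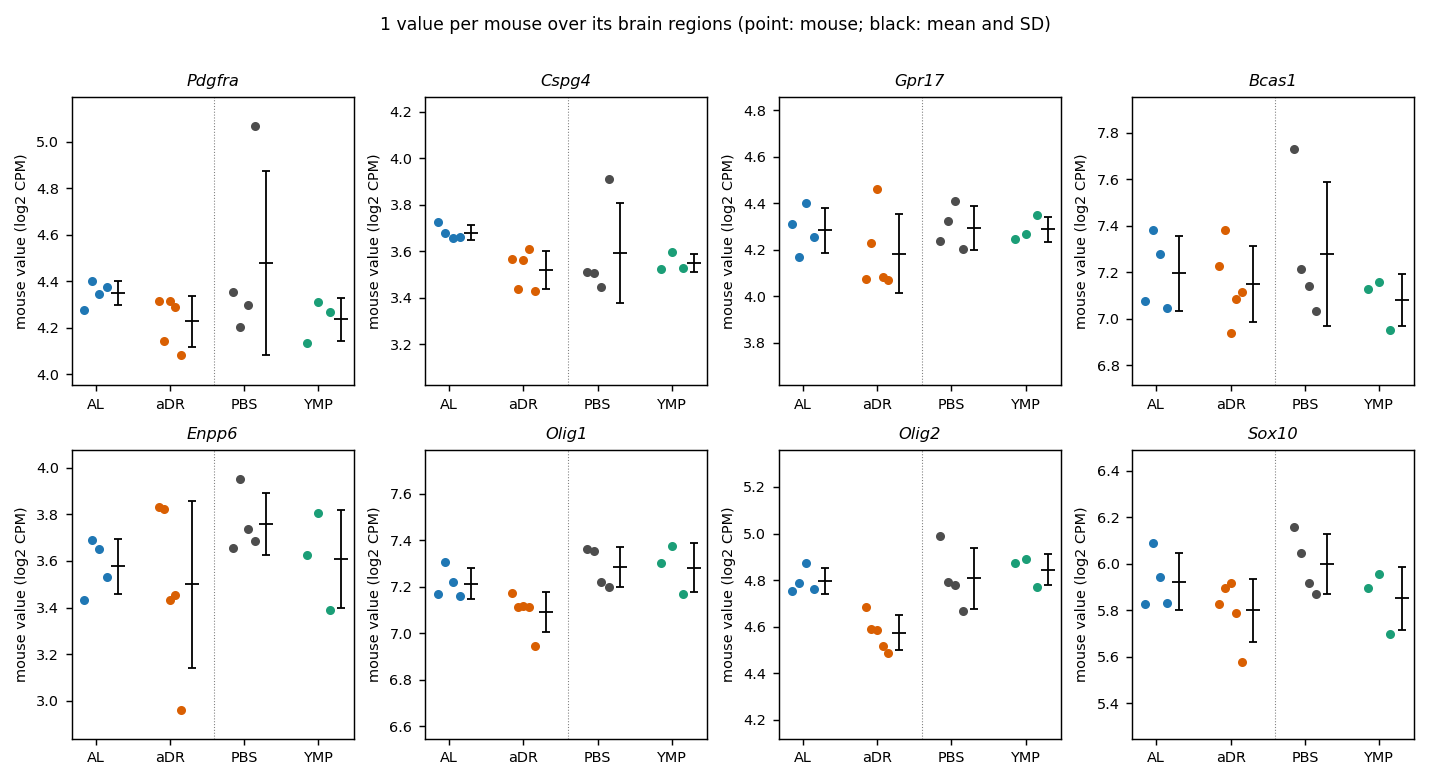
Mouse values (log2 CPM, y axis, the same log2 range in each panel) of each gene, 1 point per mouse for AL, aDR, PBS and YMP, with the mean and SD in black. The aDR mice lie below the AL mice without overlap for Olig2 and Cspg4, and PBS mouse 84 stands alone at 5.07 for Pdgfra.

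Some vessel genes were lower in the aDR mice. Of 8 pericyte genes 8 were negative across regions and 1 was called lower by limma (0.922% of all genes were called), Higd1b (-0.35, SE 0.042, adjusted p = 0.0109), with a list median of -0.18. Of 6 genes of the endothelial cell list 4 were negative and 2 positive, and 2 were called lower, Flt1 (-0.26, adjusted p = 0.0382), a VEGF receptor, and Cldn5 (-0.48, adjusted p = 0.0402), a tight junction protein. Cspg4 is expressed by pericytes as well as precursors, and the part of pericytes in its difference was not tested.

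Among other lineage genes, 13 of 17 OPC markers were negative (median -0.076) and 1 was called lower, the adhesion gene Pcdh15 (-0.24, SE 0.041, limma adjusted p = 0.0402). None was called among the 11 committed and newly formed oligodendrocyte markers (median -0.0078; smallest p for Frmd4a, -0.092, adjusted p = 0.306), the 20 mature myelin genes (median -0.014) or the 15 oligodendrocyte differentiation regulators (median 0.015; Hes1, 0.21, adjusted p = 0.225). Of the PDGF ligands and receptor list, 4 of 5 were negative, with the smallest p for Pdgfrb (-0.10, adjusted p = 0.210). Of 11 proliferation genes 6 were negative, with the smallest p for Ccnd1 (-0.17, adjusted p = 0.0939).

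Lists of the other cell types that the tissue pieces could hold had no called gene in the diet comparison, beside the vessel lists above. The genes with the smallest p were Cx3cr1 (-0.13, limma adjusted p = 0.0933) for microglia, Alas2 (0.36, 0.116) for blood, Foxd3 (-0.17, 0.144) for Schwann cell, Foxj1 (0.17, 0.234) for ependymal cell and Col1a1 (-0.27, 0.302) for meningeal and perivascular fibroblast. They were Sox11 (-0.11, 0.358) for neuroblast, Aqp4 (-0.22, 0.391) for astrocyte, Gad1 (-0.17, 0.412) for neuron and Slc4a5 (0.25, 0.754) for choroid plexus epithelium. All 7 microglia genes were negative (median -0.049) and all 5 blood genes positive (median 0.93), the latter with 1 at an unadjusted p under 0.05.

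Within single regions 0 of 120 pairs of gene and region were called by edgeR in the diet comparison, where 0.0525% of all pairs were. At an unadjusted p under 0.05 there were 20 pairs, 2 higher and 18 lower, against 3.01% higher and 3.23% lower over all genes. DESeq2 called 1 pair, Olig1 in olfactory bulb (-0.19, adjusted p = 0.0322). The 3 pairs with the smallest p are given in full. Olig2 in posterior hippocampus held 17.5, 17.9, 18.0, 18.6 and 19.9 CPM in aDR and 24.0, 24.8, 25.1 and 23.7 CPM in AL mice, a difference of -0.38 (SE 0.077, edgeR adjusted p = 0.880). The groups did not overlap. Olig1 in olfactory bulb held 102, 107, 102, 102 and 98.8 CPM in aDR and 120, 119, 117 and 110 CPM in AL mice (-0.19, edgeR adjusted p = 0.165), also without overlap. The other pair was Olig2 in cerebellum. These pairs were picked by their p, so their lack of overlap carries no further weight.

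Cerebellum held 7 of the 18 lower pairs. All 8 genes were negative there, with a median of -0.54, and 7 had an unadjusted p under 0.05, where 7.70% of genes had one in that direction. Olig2 held 9.66, 12.9, 9.59, 11.7 and 13.7 CPM in aDR and 16.5, 16.4, 19.2 and 14.3 CPM in AL cerebellum (-0.53, SE 0.13, edgeR adjusted p = 0.143). Enpp6 held 11.7, 21.03, 6.59, 15.1 and 17.7 against 29.8, 26.1, 26.4 and 18.1 CPM (-0.82, edgeR adjusted p = 0.195), and these groups overlapped. The mature myelin genes went the same way: 18 of 20 were negative, 14 of them with an unadjusted p under 0.05, and their summed level was 5996 to 14528 CPM in aDR and 9597 to 16973 CPM in AL mice. Their part was not tested.

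Entorhinal cortex held the largest single differences, which rested on 2 mice. Enpp6 there was at 10.2 and 24.4 CPM in aDR mice 61 and 62 and at 1.53, 1.70 and 1.49 CPM in the other 3, against 1.22 to 2.10 CPM in AL mice. Its log2 difference was 2.22 (SE 1.15, edgeR adjusted p = 0.9997). Bcas1 showed the same 2 mice, at 69.3 and 149 CPM, with 9.72 to 22.0 CPM in the others. The summed mature myelin level of the aDR entorhinal group ran from 1174 to 14981 CPM, against 1319 to 2616 CPM in AL mice. Pdgfra in those aDR mice was 25.9 and 24.4 CPM, the lowest of the 5, with the other 3 at 27.5 to 32.6 CPM.

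Plasma of young mice was set against saline in males for the same question. None of the 8 genes passed the test over regions, and 7 of 8 differences were negative. By limma on mouse values 0 of 8 were called, where 0% of 15768 genes were, and 0 of 8 had an unadjusted p under 0.05, where 8.09% did. Pdgfra was at -0.24 (SE 0.20, adjusted p = 0.784), Bcas1 at -0.20 (SE 0.16), Enpp6 at -0.15 (SE 0.11) and Sox10 at -0.15 (SE 0.091). Cspg4 (-0.043), Gpr17 (-0.0052), Olig1 (-0.0025) and Olig2 (0.038) were near 0. The YMP and PBS mice overlapped for all 8 genes, where 10.1% of genes did not overlap.

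Pdgfra was lower in YMP than in PBS mice in 15 of 15 regions, and most of the difference came with 1 PBS mouse. Its mouse values were 4.13, 4.31 and 4.27 in YMP mice and 4.36, 4.20, 4.30 and 5.07 in PBS mice 72, 76, 80 and 84. Mouse 84 held the highest Pdgfra of all plasma libraries in each of its 15 regions, such as 51.7 CPM in SVZ, where the other 6 mice held 18.7 to 23.9 CPM. Without mouse 84 the difference was -0.052 (limma adjusted p = 0.774). Cspg4 was highest in this mouse in 12 of 15 regions, and Gpr17, the next gene of the sequence, in 1 of 15.

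The pattern of mouse 84 was not limited to the precursor genes. Among 12020 genes, 29 were highest in mouse 84 in every region, against 0 or 1 for each other mouse of either experiment. Genes with long exon sequence were higher and short ones lower in this mouse: the median deviation of its mouse values from the mean of the 7 mice of the experiment was -0.071 on the log2 scale for the fifth of genes with the fewest exon bases and 0.057 for the fifth with the most, to which Pdgfra (10024 exon bases) and Cspg4 (11931) belong. The part of exon length in the Pdgfra and Cspg4 values of this mouse was not tested.

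**Figure D4:**
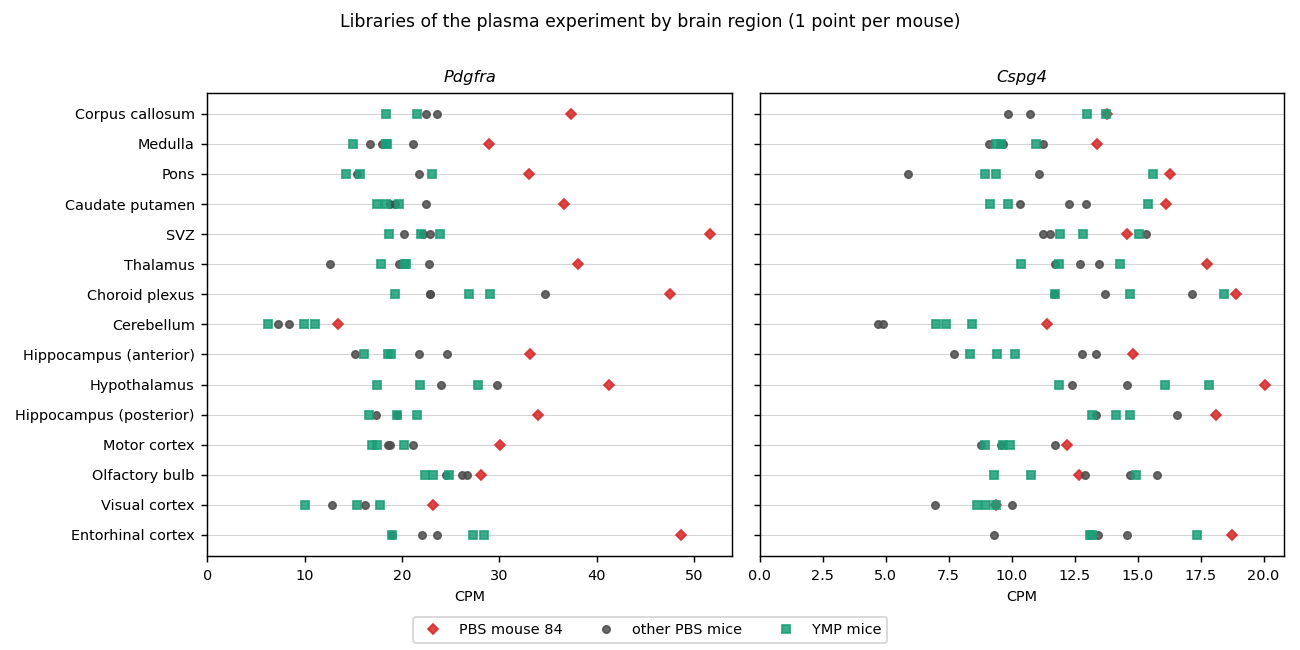
CPM of Pdgfra and Cspg4 (x axes) in each library of the plasma experiment by brain region, with PBS mouse 84 as red diamonds, the other PBS mice as grey circles and YMP mice as green squares. Mouse 84 is the highest library in 15 of 15 regions for Pdgfra and in 12 of 15 for Cspg4.

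Within single regions 0 of 120 pairs were called by edgeR in the plasma comparison, where 0.0127% of all pairs were, and DESeq2 called 0. At an unadjusted p under 0.05 there were 20 pairs, 10 higher and 10 lower, against 2.65% and 3.46% over all genes. The lower ones lay mostly in caudate putamen and anterior hippocampus (4 genes each, against 6.68% and 5.16% of all genes) and the higher ones in cerebellum and corpus callosum (4 genes each, against 5.07% and 2.15%). Sox10 in anterior hippocampus held 49.1, 41.0 and 49.8 CPM in YMP and 84.5, 73.7, 52.7 and 68.7 CPM in PBS mice, without overlap (-0.60, edgeR adjusted p = 0.683). Olig2 in corpus callosum held 47.6 and 53.4 CPM in YMP and 32.5, 38.2 and 34.0 CPM in PBS mice, the other way round (0.54, edgeR adjusted p = 0.281). Bcas1 in anterior hippocampus held 103, 108 and 136 CPM in YMP and 307, 178, 140 and 194 CPM in PBS mice (-0.83, edgeR adjusted p = 0.683), with a narrow gap between the groups. The named pairs were picked by their p, so a lack of overlap carries no further weight here either.

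Myelin genes moved the same way in caudate putamen, anterior hippocampus and corpus callosum. Of 20 mature myelin genes 19 were negative in caudate putamen and 19 in anterior hippocampus, with medians of -0.90 and -0.66, and 18 of 20 were positive in corpus callosum (median 0.35). In caudate putamen PBS mouse 76 stood alone: Sox10 was at 178 CPM, against 93.5 to 98.4 CPM in the other PBS mice and 55.4 to 88.1 CPM in YMP mice, and the summed mature myelin level of PBS mice there ran from 19803 to 47600 CPM. In the corpus callosum the YMP libraries held Ttr at up to 2.58 CPM and the PBS libraries at 4870 to 17718 CPM. The part of tissue composition in these differences was not tested.

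**Figure D5:**
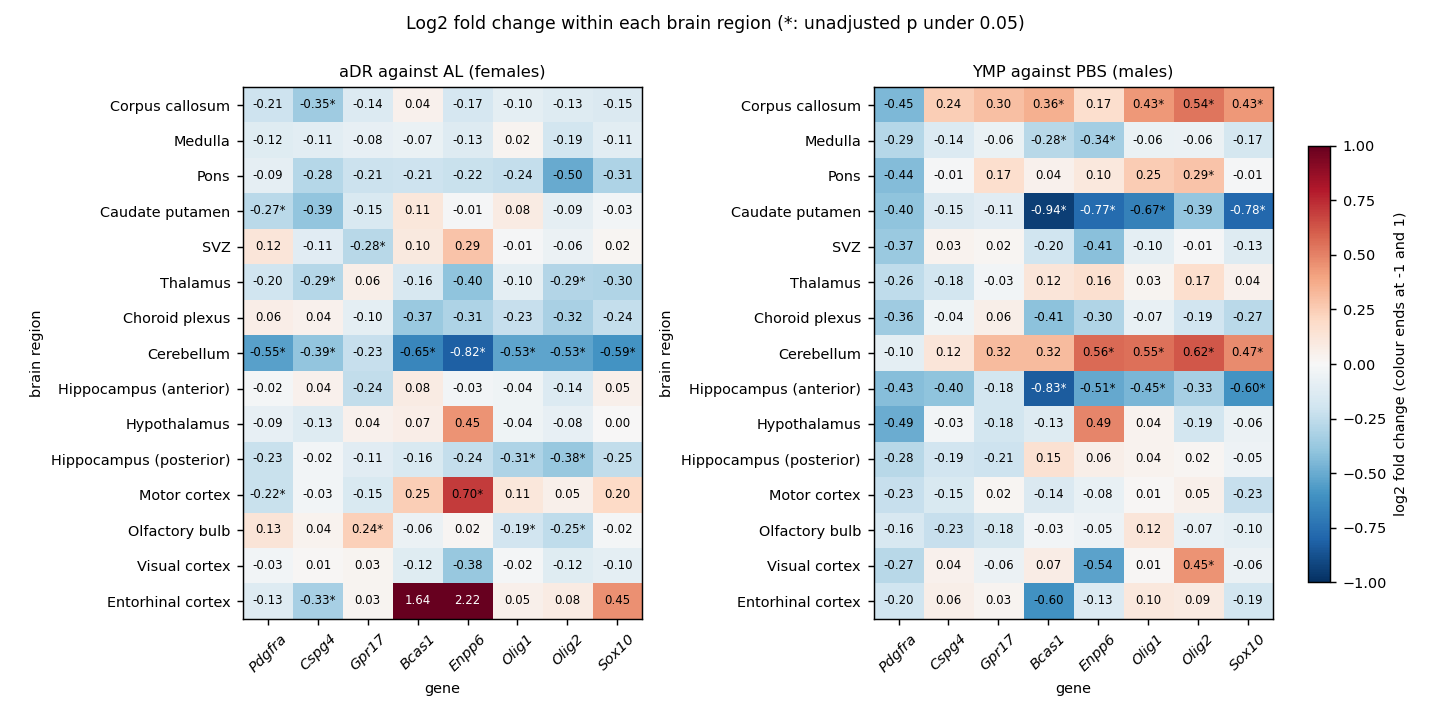
Log2 fold change of each gene (columns) in each brain region (rows), aDR against AL on the left and YMP against PBS on the right, with * for an unadjusted p under 0.05. No cell was called after adjustment; all 8 genes are negative in the diet comparison of cerebellum, and Pdgfra is negative in every region of the plasma comparison.

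No gene of any list was called for plasma across regions. Of 17 OPC markers 9 were negative (median -0.014; smallest p for Nkx2-2, -0.28, limma adjusted p = 0.501), and of 20 mature myelin genes 19 were negative (median -0.14), with the smallest p for the 1 positive gene, Mal2 (0.22, adjusted p = 0.485). The 10 genes of the choroid plexus epithelium list were all negative (median -1.29; Aqp1, -1.30, adjusted p = 0.335), as were 7 of 8 genes of the meningeal and perivascular fibroblast list (median -0.35; Lum, -0.58, adjusted p = 0.337). Meningeal fibroblasts express Pdgfra too. The part of these cells in its difference was not tested.

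The remaining lists had no called gene either. The genes with the smallest p were Gfap (-0.36, limma adjusted p = 0.422) for astrocyte, Kcnj8 (0.24, 0.447) for pericyte, Zfp536 (-0.14, 0.501) for the differentiation regulators, Prx (-0.26, 0.525) for Schwann cell, Pdgfd (-0.27, 0.609) for the PDGF list and Rbfox3 (0.095, 0.616) for neuron. They were Bmp4 (-0.41, 0.621) for committed cells, Slco1a4 (-0.15, 0.633) for endothelial cell, Mcm5 (0.16, 0.644) for proliferation, Mia (-0.32, 0.690) for ependymal cell, Cx3cr1 (-0.11, 0.714) for microglia, Sox11 (0.14, 0.719) for neuroblast and Hba-a2 (-0.39, 0.890) for blood.

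Whether a treatment acted differently between regions was tested by the region by treatment terms of an edgeR fit. For diet 0 of 8 genes were called, where 0.0128% of 15616 genes were, and for plasma 0 of 8, where 0.824% of 15768 were. At an unadjusted p under 0.05 the fit held 0 of 8 genes for diet (2.13% of all) and 2 of 8 for plasma (7.70% of all). The smallest p values in the plasma experiment were those of Olig1 (edgeR adjusted p = 0.217) and Olig2 (adjusted p = 0.448), and the smallest in the diet experiment that of Enpp6 (adjusted p = 1). The opposite signs of Olig2 in corpus callosum and caudate putamen after plasma therefore did not pass the test of a difference between regions.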

How the data were processed

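The authors deposited 1 table of raw counts per gene for 238 libraries, in which 537 of 21076 rows held no count. Per the labels' protocols, RNA of homogenised tissue was made into unstranded Smart-Seq2 libraries. Per the submitters' processing notes, Trim Galore 0.3.7, STAR 2.5.3a, DESeq2 and the build GRCm38 were used, and the counting program and annotation are not given in the sources used here. Samples were grouped by the labels' treatment and region, and n is mice. P-values within a region and on mouse values thus measure the spread between the mice of a group. In their main form, the edgeR fits over regions and of region by treatment terms did not pair the libraries of 1 mouse. Computed here from the deposited counts: CPM after TMM scaling over the 229 brain libraries, log2 CPM with a prior count of 2, edgeR (4.0.16) quasi-likelihood tests within each region, over regions in AL and PBS mice and for region by treatment terms, and limma (3.58.1) on 1 value per mouse across regions, in R 4.3.3. Genes with low counts were removed in each fit (minimum count 10, minimum total 15). A call is a Benjamini-Hochberg adjusted p under 0.05 over all genes of a fit, or of a region. DESeq2 (1.42.0), limma with voom with or without the mouse as replicate block, other size factors, no filter, a prior count of 0.5 and leaving out mice or tissues were alternatives, and leaving out the pons library of aDR mouse 67 or libraries under 2 M counts was added after seeing the data. Libraries of 1 mouse are paired by the labels: the mean correlation of their deviations was 0.0468 in the diet and 0.116 in the plasma experiment, against -0.0058 and -0.0195 between mice. Among 357 pairs of libraries of 1 group, none differed by as little as sampling noise (lowest chi-square per degree of freedom 1.29). The edgeR and limma scripts were tested on simulated data.

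The 8 genes and 17 lists of 154 genes (1 without a row) were chosen with earlier results of these data known. All 8 genes were named, as were for each the 3 other genes of at least 5 CPM with the highest correlation over AL regions, the called gene of each list or else the one with its smallest p across regions, and the 3 pairs of gene and region with the smallest p of each experiment. The gene this rule names for the mature myelin list in the diet comparison is not reported here. The counts of mouse 84 over all genes and exon lengths were made after its values were seen.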

Additional observations from a re-analysis of the deposited data

Results flagged for a closer look

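Of 200 groups of 4 or 5 mice, 13 held a mouse far from the others by Dixon's 95% criterion, where chance gives about 10. PBS mouse 84 was such a mouse for Pdgfra in entorhinal cortex (48.6 CPM, others 19.0 to 23.6), for Pdgfra in SVZ (51.7 CPM, others 20.2 to 22.9) and for the Cspg4 mouse value (3.91 log2 CPM, others 3.44 to 3.51). PBS mouse 76 stood above the other PBS mice in caudate putamen for Enpp6 (51.6 CPM, others 26.1 to 28.9), Olig2 (54.6 CPM, others 29.4 to 30.5) and Sox10 (178 CPM, others 93.5 to 98.4). The same mouse was lowest for Bcas1 in olfactory bulb (52.6 CPM, others 68.6 to 70.3).

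PBS mouse 72 was highest for Bcas1 in entorhinal cortex (86.8 CPM, others 13.9 to 18.2) and thalamus (241 CPM, others 169 to 179). AL mouse 68 was highest for Bcas1 in medulla (644 CPM, others 537 to 547) and for Pdgfra in thalamus (20.7 CPM, others 18.6 to 18.9), and lowest for Cspg4 in anterior hippocampus (9.28 CPM, others 12.8 to 13.4). The Olig1 mouse value of aDR mouse 67 was 6.95 log2 CPM, with the others at 7.11 to 7.17.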

How the results depend on the processing

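Within regions, DESeq2 called 1 gene and region pair in the diet comparison in place of 0. Across regions, limma with voom called 2 of 8 genes for diet with the mouse as replicate block and 4 without it, and 0 and 1 (Pdgfra, -0.25, adjusted p = 0.0122) for plasma, each in place of 0. Over all genes these fits called 1474 and 2760 for diet in place of 144, and 486 and 2629 for plasma in place of 0. The voom fit without the block counts libraries of 1 mouse as independent, so its p-values do not measure the spread between mice. In the edgeR tests over regions and of region by treatment terms, the block changed no call on the 8 genes. For each region against the others, 75 to 85 pairs (AL) and 68 to 81 pairs (PBS) were called over the settings that kept all mice. Those settings included the block and leaving out choroid plexus. Without single mice the all-gene count was 14 to 163 for diet, 0 to 1 for plasma, 0 to 3 for the diet effect by region (2 with all mice) and 3 to 155 for the plasma effect by region (130 with all mice, 3 without YMP mouse 81). The diet effect by region was 1 without choroid plexus and corpus callosum.

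Differences near 0 changed sign. For plasma, Gpr17 was 0.012 with the block, 0.0087 without it and 0.0028 without libraries under 2 M counts, and Olig2 was -0.012 with the block. Without single mice, diet differences ran from -0.10 to 0.014 for Bcas1 and from -0.16 to 0.060 for Enpp6, and plasma differences from -0.10 to 0.062 for Cspg4, -0.040 to 0.029 for Gpr17, -0.048 to 0.053 for Olig1 and -0.014 to 0.099 for Olig2. The cause was not tested. Without single mice, 6 to 8 genes differed over regions in PBS mice, and 70 to 80 pairs (AL) and 63 to 72 pairs (PBS) were called for each region against the others, in place of 82 and 70.

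With 3 to 5 mice a group, and 2 in the YMP corpus callosum, small differences in single regions could not be resolved.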
